A study of Homo sapiens with 12 samples.

Results

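The genes described here are 10 transcriptional regulators of the mesenchymal state of neuroblastoma and of epithelial-mesenchymal transition: PRRX1, TWIST1, TWIST2, SNAI1, SNAI2, RUNX1, RUNX2, FOSL1, FOSL2 and WWTR1. They were chosen by name, with earlier results of these data known, and they are 10 of the 20033 protein-coding genes of the annotation (GENCODE release 44, hg38). For each gene, all H3K27me3 peaks that overlapped the gene with 5 kb on each side (the gene window) by at least 1 bp were collected. A mark is such a peak, and the covered share is the percentage of the bases of the window that lie inside peaks.

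Chromatin immune precipitation with an antibody against H3K27me3 was done on human SH-SY5Y neuroblastoma cells, in parental Tau expressing cells (WT) and in the MAPT knock-out (Tau-KO) lines 231K and 232P. No group was given a treatment, and each genotype had 2 replicates. Whether a Tau-KO line is 1 clone, and how the knock-out alleles read, is not given in the sources used here, and peak lists hold no measure of MAPT expression by which the knock-out could be checked. The peak names inside the lists labelled 232P begin with 231P, which the study uses for another of its Tau-KO lines, so 232P stands here for the samples so labelled, and which of these lines they hold could not be settled. The study asked whether loss of Tau is accompanied by a change of the H3K27me3 marks. The 6 input samples were not analysed here.

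The deposited lists differed in peak width, depth and covered length, and these differences bear on every value below. The lists of replicate 1 had narrower peaks, with a smallest width of 179, 179 and 175 bp in WT, 231K and 232P, than those of replicate 2 with 244, 240 and 262 bp. The relative depth, recovered from the lowest local background of each list, was 100% and 66.6% in the WT samples, 94.8% and 68.7% in 231K, and 68.1% and 56.9% in 232P. Replicate 1 of 232P had the shortest covered length, with 70.3 Mb of the genome against 197 to 290 Mb in the other samples. Depth and genotype cannot be told apart in 232P, whose samples had the lowest depth for their replicate number. A gene window without a peak is therefore one in which no mark was detectable at this depth. Both lines were compared with the same 2 WT samples, and the values within replicate 1 and within replicate 2 are given beside the pooled ones.

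H3K27me3 is the trimethylation of lysine 27 of histone H3. It is set by the Polycomb repressive complex 2 (PRC2) and is found on silenced developmental genes, often over long stretches of chromatin. Neuroblastoma cells occur in an adrenergic state, held by factors of the sympathetic lineage, and in a mesenchymal state that resembles neural crest and stromal cells. PRRX1 is a homeobox factor that can drive the mesenchymal state. TWIST1, TWIST2, SNAI1 and SNAI2 are repressors of epithelial genes that act in neural crest migration. RUNX1 and RUNX2 are DNA-binding partners of CBFB in blood and bone development. FOSL1 and FOSL2 are subunits of AP-1, and WWTR1 encodes TAZ, the coactivator that carries Hippo signalling to TEAD factors.

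The mark was divided unevenly among the 10 genes. PRRX1, RUNX1 and RUNX2 carried many H3K27me3 peaks over long stretches in all 6 samples, most broken up in replicate 1 of 232P, TWIST2 carried a few weak peaks, FOSL2 had 1 weak peak in 1 sample, and TWIST1, SNAI1, SNAI2, FOSL1 and WWTR1 had no peak in any sample. Of the 10 genes, 3 had a peak in all 6 samples, against 19.7% of all protein-coding genes, 1 had a peak in exactly 1 sample, against 3.73%, and 5 had none, against 68.3%. The median window was 79.6 kb for the 10 genes and 37.5 kb for all genes, and a longer window is more likely to hold a peak. The part of window length in these counts was not tested. A peak was present in both WT samples for 4 genes (24.2% of all genes), in both 231K samples for the same 4 genes (23.8%) and in both 232P samples for 3 genes (20.5%), since TWIST2 had a peak in replicate 2 of 232P but not in replicate 1. By the rule of presence in both WT samples and in neither sample of a line, none of the 4 genes lost its peak in 231K (1.57% of all genes with a peak in both WT samples) or in 232P (4.47%). None of the 6 genes without a peak in the WT samples gained one in both samples of 231K (0.434%) or of 232P (0.119%). A mark within 1 kb of an annotated start was present for PRRX1, RUNX1 and RUNX2 in all 6 samples (11.4% of all genes), and thus in both samples of WT (16.5%), of 231K (15.7%) and of 232P (12.2%). For RUNX2 in WT replicate 1, this mark rested on 5 bp of a peak at the edge of 1 of 11 start windows. No gene lost its start site mark in 231K (2.52% of all genes with such a mark in both WT samples) or in 232P (7.0%), and none gained one in 231K (0.206%) or in 232P (0.0813%).

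**Figure D1:**
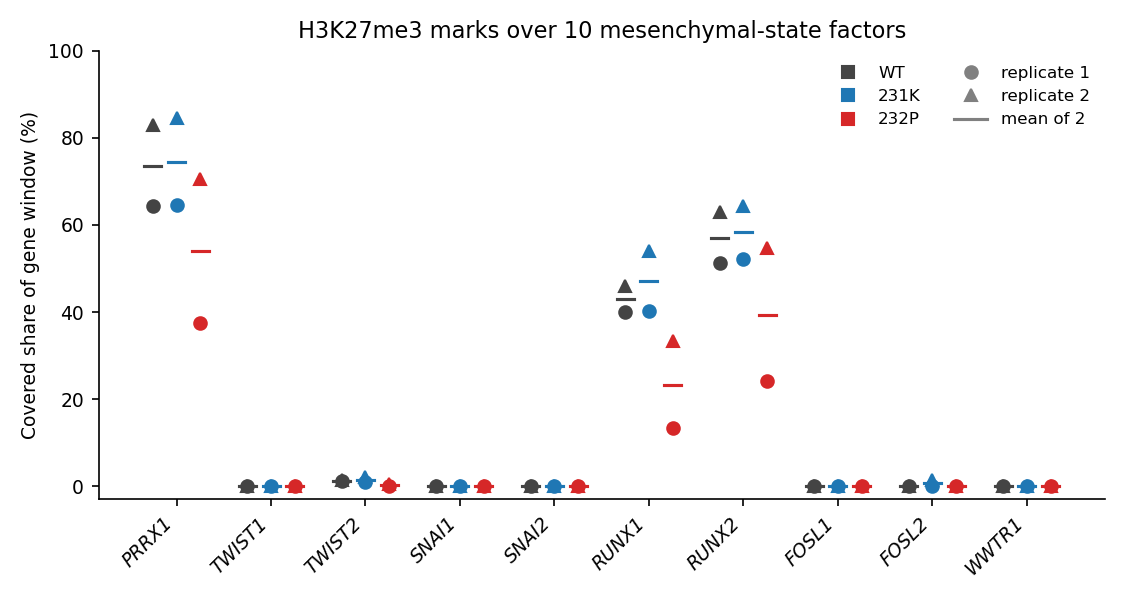
Percentage of each gene window (gene with 5 kb on each side) that lies inside H3K27me3 peaks, for the 10 genes, with 1 point per sample (circles, replicate 1; triangles, replicate 2) and a line at the mean of the 2 samples of WT, 231K and 232P. PRRX1, RUNX1 and RUNX2 stand between 13.4% and 84.6%, whereas the other 7 genes stay at or under 2.11%.

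In all, the 10 windows measured 2152 kb, of which 725 and 854 kb were covered in the WT samples, 730 and 961 kb in 231K, and 281 and 660 kb in 232P. Of these covered bases, 99.8% to 100% lay in PRRX1, RUNX1 and RUNX2, and 58.6% to 69.0% in RUNX1 alone, so sums over the 10 windows describe mainly RUNX1. The ratio of mean summed covered length to WT was 1.07 in 231K, with 1.01 within replicate 1 and 1.13 within replicate 2, and 0.596 in 232P, with 0.387 and 0.772. Over all gene windows these ratios were 0.995 in 231K, with 0.930 and 1.04, and 0.584 in 232P, with 0.362 and 0.755.

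The stretches of DNA around which the following values turn are shown here to set a promoter inside the mark beside promoters outside it. They were read from the hg38 reference, 5′ to 3′ on the strand of the gene, with each CG dinucleotide in capitals, and none holds an exon of a protein-coding gene. The first 5 are the 250 bases before a start, for the first annotated start of PRRX1 and for the distal and the proximal promoters of RUNX1 and RUNX2. The last is the stretch of the TWIST2 intron that 5 samples shared.
PRRX1, chr1:170662478-170662727, + strand: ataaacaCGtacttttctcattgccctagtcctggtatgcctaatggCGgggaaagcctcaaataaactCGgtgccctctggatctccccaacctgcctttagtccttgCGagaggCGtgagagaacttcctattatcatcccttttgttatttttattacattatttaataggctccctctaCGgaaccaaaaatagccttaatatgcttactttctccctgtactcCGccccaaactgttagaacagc
RUNX2 distal, chr6:45327907-45328156, + strand: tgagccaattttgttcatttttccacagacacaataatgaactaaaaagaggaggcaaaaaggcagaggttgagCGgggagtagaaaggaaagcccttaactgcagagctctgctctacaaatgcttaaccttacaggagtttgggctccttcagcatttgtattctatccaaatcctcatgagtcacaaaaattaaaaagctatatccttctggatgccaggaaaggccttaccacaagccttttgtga
RUNX2 proximal, chr6:45421786-45422035, + strand: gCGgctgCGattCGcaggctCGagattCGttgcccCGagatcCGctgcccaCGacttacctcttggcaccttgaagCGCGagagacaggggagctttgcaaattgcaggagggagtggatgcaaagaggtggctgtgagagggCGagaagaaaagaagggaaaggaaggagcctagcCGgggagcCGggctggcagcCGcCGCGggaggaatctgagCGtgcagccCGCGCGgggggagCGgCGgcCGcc
RUNX1 distal, chr21:35049345-35049594, - strand: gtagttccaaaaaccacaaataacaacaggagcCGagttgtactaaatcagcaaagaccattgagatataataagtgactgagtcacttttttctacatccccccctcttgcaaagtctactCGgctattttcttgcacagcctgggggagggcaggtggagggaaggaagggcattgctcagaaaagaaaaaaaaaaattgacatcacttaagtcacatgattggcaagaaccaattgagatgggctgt
RUNX1 proximal, chr21:34888700-34888949, - strand: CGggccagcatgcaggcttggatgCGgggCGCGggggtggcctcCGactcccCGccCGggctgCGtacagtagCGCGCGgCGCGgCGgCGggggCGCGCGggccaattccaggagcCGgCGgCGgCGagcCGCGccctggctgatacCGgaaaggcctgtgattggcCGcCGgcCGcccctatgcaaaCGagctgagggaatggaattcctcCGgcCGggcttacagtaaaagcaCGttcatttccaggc
TWIST2 intron, chr2:238849948-238850109, + strand: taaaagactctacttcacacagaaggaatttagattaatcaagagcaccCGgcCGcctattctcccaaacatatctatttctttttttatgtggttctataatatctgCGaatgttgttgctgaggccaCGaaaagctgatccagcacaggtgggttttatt

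The PRRX1 stretch was inside a peak over its whole length in all 6 samples. It holds 7 CG dinucleotides, and 58.9% of the 35116 RefSeq promoters (GRCh38.p14) hold at least as many in their 250 bases before the start. The RUNX1 distal stretch holds 2 (85.3% of promoters with at least as many) and overlapped a peak in both WT and both 231K samples, but in neither 232P sample. The RUNX1 proximal stretch holds 32 (9.52%) and the RUNX2 proximal stretch 23 (25.8%), and neither overlapped a peak in any sample. The RUNX2 distal stretch holds 1 (93.9%) and was likewise outside the peaks of all 6 samples. RefSeq promoter entries were found for 6 of the 10 genes. The RUNX2 proximal stretch overlaps an exon of a long non-coding RNA gene.

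The 2 CG-rich promoters were thus bare although each lay inside or at the edge of a domain. Around the proximal RUNX2 start, the uncovered run measured 3.29 and 2.68 kb in WT, 2.91 and 2.76 kb in 231K, and 2.35 and 2.89 kb in 232P. Around the proximal RUNX1 start, it measured 3.16 and 3.03 kb in WT, 3.25 and 3.15 kb in 231K, and 4.87 and 3.28 kb in 232P. These runs were described after their values were seen. Among the other genes with at least 25% of the window covered in both WT samples, 62.6% of 666 promoters with more CG than the median promoter overlapped no peak in any sample, against 6.95% of 1425 promoters at or under the median of 11. Reads per base, inputs and mappability were not analysed here, so whether base composition affected the recovery of these stretches was not tested.

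PRRX1 (chr1:170662728-170739421, + strand, window of 86.7 kb) had the highest covered share of the 10 genes. In WT, 43 peaks in replicate 1 and 23 in replicate 2 covered 64.4% and 82.9% of the window. In 231K, 47 and 21 peaks covered 64.5% and 84.6%. In 232P, 51 and 19 peaks covered 37.4% and 70.5%. Replicate 1 was the lower sample in each genotype, both 231K samples lay within 2 percentage points of the WT sample with the same number, and the 232P samples overlapped those of WT, although each was below the WT sample with its number. The mean covered share was 73.6% ± 13.1 (SD, n = 2) in WT, 74.5% ± 14.2 in 231K and 54.0% ± 23.4 in 232P. The ratio to WT was 1.01 in 231K, with 1.00 within replicate 1 and 1.02 within replicate 2, and 0.733 in 232P, with 0.581 and 0.850. The mean of the 4 Tau-KO samples differed from that of the 2 WT samples by -9.38 percentage points. This difference was smaller than the spread between samples (exact permutation test, two-sided, p = 0.933). The same test was run on RUNX1, RUNX2, TWIST2 and FOSL2, and the smallest p that 4 against 2 samples allow is 0.0667. It pools the samples of both lines and of both replicate numbers, so a difference in 1 line alone is averaged with the other line.

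All 8 annotated starts of PRRX1 had a mark within 1 kb in all 6 samples, the 4 clustered at the 5′ end as well as the 4 inside the gene. The domain began before the gene, since 56.7% to 88.2% of the 5 kb upstream was covered. Introns of the canonical transcript were covered more than its exons in each sample, with 67.8% against 19.4% in WT replicate 1 and 86.8% against 28.7% in WT replicate 2. With gaps of at most 1 kb closed, the longest block in the window measured 26.9 and 59.5 kb in WT, 25.2 and 25.7 kb in 231K, and 18.3 and 24.5 kb in 232P. Of the bases covered in both WT samples, 1.96% were covered in neither 231K sample and 9.42% in neither 232P sample, whereas over all gene windows these shares were 8.68% and 25%. The local background of the peaks within 1 Mb of PRRX1 was 1.31 to 1.46 times that of the whole list, a measure of local read density that rises with DNA copy number. The same ratio was 1.37 to 1.63 near TWIST1 and 1.41 to 1.83 near FOSL2, and a higher local background makes a peak call less likely. The part of copy number or local background in the values of these genes was not tested.

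RUNX1 (chr21:34787801-36004667, - strand, window of 1227 kb) is annotated with transcripts that start up to 955 kb before the canonical start at the distal promoter. In WT, 632 and 475 peaks covered 39.9% and 46.0% of the window. In 231K, 641 and 417 peaks covered 40.2% and 54.0%. In 232P, 399 and 452 peaks covered 13.4% and 33.3%. Both 232P samples were below both WT samples, whereas the 231K samples overlapped with WT. The mean covered share was 43.0% ± 4.25 (SD, n = 2) in WT, 47.1% ± 9.77 in 231K and 23.4% ± 14.1 in 232P. The ratio to WT was 1.10 in 231K, with 1.01 and 1.18 within replicates 1 and 2, and 0.544 in 232P, with 0.335 and 0.725. Tau-KO differed from WT by -7.71 percentage points, within the spread between samples (exact permutation test, two-sided, p = 0.80). Of the bases covered in both WT samples, 36.4% were covered in neither 232P sample (25% over all gene windows) and 9.15% in neither 231K sample (8.68%). Of the bases covered in both 231K samples, 14.4% (55.2 kb) were covered in neither WT sample, against 8.40% over all gene windows, and these exceeded the 29.4 kb lost. With gaps of at most 1 kb closed, the longest block of RUNX1 measured 23.1 and 42.7 kb in WT, 25.2 and 70.8 kb in 231K, and 8.93 and 19.2 kb in 232P.

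The promoters divide RUNX1 into 3 segments. The 955 kb upstream of the distal promoter were covered by 40.0% and 45.6% in WT, by 41.0% and 55.3% in 231K, and by 13.0% and 32.7% in 232P. The 161 kb between the distal and the proximal promoter were the most covered, with 56.8% and 62.5% in WT, 58.7% and 80.0% in 231K, and 21.9% and 49.2% in 232P. In both of these segments the 232P samples were below WT and the 231K samples at or above the WT sample with the same number. The 101 kb from the proximal promoter to the 3′ end had another order. There 15.8% and 25.1% were covered in WT, 7.43% and 4.16% in 231K, and 5.19% and 17.4% in 232P, so that both 231K samples were below both WT samples and the 232P samples overlapped with WT. The ratio of means to WT in this segment was 0.283 in 231K and 0.553 in 232P. Segments were compared after the map of the gene was seen, so this difference was not tested. Over whole gene windows, both 231K samples were below both WT samples in 12.5% of the genes tested. This share was not computed for segments.

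The single starts of RUNX1 differed within this last segment. Of its 16 annotated starts, 1 had a mark within 1 kb in all 6 samples, and 10 had one in both WT, both 231K and 1 of the 232P samples, among them the 5 clustered at the distal promoter and those at chr21:34887183 and chr21:34888690 in the last segment. The starts at chr21:34856447 and chr21:34859578, which lie 193 and 190 kb downstream of the canonical start, had a mark in both WT samples and in neither 231K sample, and in 1 and 0 of the 232P samples. The start at chr21:34829970, also in that segment, had a mark in both WT samples, 1 of the 231K and 1 of the 232P samples. The start at chr21:34889790, next to the CG-rich proximal promoter, had none in any sample. The first annotated start, at chr21:36004667, had one in both WT samples, in 1 of the 231K samples and in neither 232P sample, so with that start alone RUNX1 lost its mark in 232P. RUNX1 is counted as marked at a start in each genotype because 1 marked start suffices.

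RUNX2 (chr6:45328157-45664349, + strand, window of 346 kb) overlaps the 5′ part of SUPT3H, which is read from the other strand. In WT, 121 and 52 peaks covered 51.4% and 62.9% of the window. In 231K, 142 and 48 peaks covered 52.2% and 64.4%. In 232P, 150 and 76 peaks covered 24.2% and 54.7%. The 231K samples lay close to the WT samples with the same number, and the 232P samples overlapped with WT, although each was below the WT sample with its number. The mean was 57.1% ± 8.13 (SD, n = 2) in WT, 58.3% ± 8.67 in 231K and 39.4% ± 21.5 in 232P. The ratio to WT was 1.02 in 231K, with 1.02 and 1.02 within replicates 1 and 2, and 0.691 in 232P, with 0.471 and 0.870. The Tau-KO mean differed from WT by -8.26 percentage points, within the spread between samples (exact permutation test, two-sided, p = 0.933).

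The mark of RUNX2 had a sharp 5′ border in each sample. The 7 starts of the distal promoter region, from chr6:45328157 to chr6:45361573, had no mark within 1 kb in any sample, and the first covered base of the window lay 85.5 to 87.4 kb downstream of the first start. This border was 6.82 and 8.40 kb before the proximal start in WT, 6.46 and 8.31 kb in 231K, and 6.92 and 6.99 kb in 232P. From the proximal promoter to the 3′ end (242 kb), 70.2% and 85.4% of the bases were covered in WT, 71.2% and 87.5% in 231K, and 33.2% and 75.0% in 232P. The stretch that RUNX2 shares with SUPT3H, with the 5 kb before it, held no peak in any sample. Of the bases covered in both WT samples, 1.96% were covered in neither 231K sample and 9.74% in neither 232P sample. With gaps of at most 1 kb closed, the longest block measured 41.5 and 136 kb in WT, 74.4 and 156 kb in 231K, and 9.85 and 75.2 kb in 232P, so that in the lower covered replicate 1 of 232P the domain was broken into 60 blocks.

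**Figure D2:**
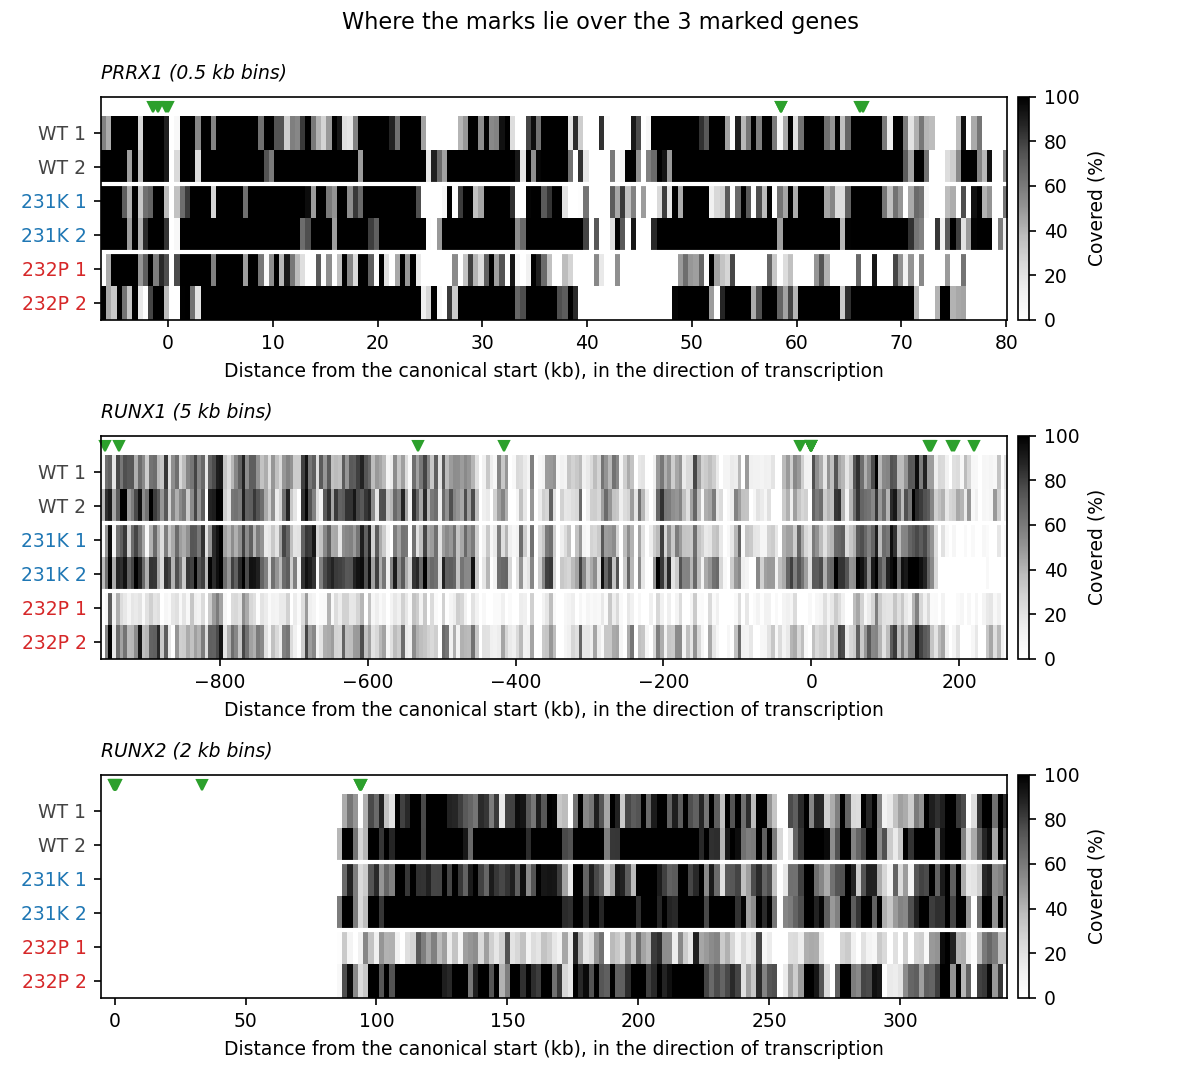
Percentage of each bin inside H3K27me3 peaks along the windows of PRRX1, RUNX1 and RUNX2 (grey scale, 1 row per sample), by distance from the canonical start in kb in the direction of transcription, with green triangles at the annotated starts. RUNX2 is bare from its distal starts to about 86 kb downstream in all 6 samples, and the last 101 kb of RUNX1 are covered by 4.16% to 7.43% in both 231K samples and replicate 1 of 232P.

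TWIST2 (chr2:238848032-238910534, + strand, window of 72.5 kb) carried small peaks of low enrichment. Its window had 3 and 2 peaks in WT, 2 and 1 in 231K, and 0 and 1 in 232P, and the covered share was 1.11% and 1.36% in WT, 0.921% and 2.11% in 231K, and 0% and 0.513% in 232P. Both 232P samples were thus below both WT samples. Each of the 5 samples with a peak had 1 that covered the 162 bases of the intron shown above, which begin 1.92 kb inside the gene, and the fold enrichment of these peaks was 2.38 and 4.20 in WT samples, 4.10 and 4.87 in 231K, and 3.09 in 232P. Both WT samples had further peaks 2.71 to 4.39 kb before the gene, at a fold enrichment of 2.52 to 3.18, and no Tau-KO sample had a peak in those 5 kb. The WT peaks there did not overlap each other. None of the 3 annotated starts had a mark within 1 kb. The Tau-KO mean differed from WT by -0.353 percentage points, within the spread between samples (exact permutation test, two-sided, p = 0.667). In FOSL2 (chr2:28392448-28417317, + strand), the only peak was found in replicate 2 of 231K, 511 bp wide and 2.57 kb inside the gene, with a fold enrichment of 2.44 and a -log10 q-value of 1.38. The smallest -log10 q-value of that list was 0.842. Outside its window the nearest peak was 457 to 459 kb away in 5 samples and 14.2 kb away in replicate 1 of 232P.

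The other 5 genes had no peak within 5 kb in any of the 6 samples. TWIST1 lies on chromosome 7 (chr7:19020991-19117636), SNAI1 on chromosome 20 (chr20:49982980-49988886), SNAI2 on chromosome 8, FOSL1 on chromosome 11 (chr11:65892049-65900573) and WWTR1 on chromosome 3 (chr3:149517235-149736714). The window of FOSL1 also holds CCDC85B and FIBP, and that of WWTR1 holds COMMD2. The distance from the gene to the nearest peak beyond the window was 372 to 446 kb for SNAI1, 83.6 to 138 kb for FOSL1, 78.7 to 199 kb for TWIST1 and 20.2 to 60.6 kb for SNAI2. For WWTR1, a peak lay 23.6 to 28.9 kb away in 4 samples, whereas in replicate 1 of both Tau-KO lines the nearest was 1155 and 1164 kb away.

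Across all genes, the covered length of the window was compared by limma over the 5598 genes with a peak in at least 2 samples, of which PRRX1, RUNX1, RUNX2 and TWIST2 are 4. At an adjusted p under 0.05 limma called no gene in 231K against WT (0%), none in 232P against WT (0%) and none for both Tau-KO lines against WT (0%). At an unadjusted p under 0.05 it gave 103 genes (1.84%), 552 genes (9.86%) and 199 genes (3.55%), and none of the 4 genes was among them. In 231K, the log2 difference of covered length was 0.02 for PRRX1, 0.12 for RUNX1, 0.03 for RUNX2 and 0.14 for TWIST2, with standard errors of 0.50, 0.97, 0.68 and 0.54 and an adjusted p of 1.00 for each. Of all genes tested, 56.7% were lower in 231K by any amount, and of these 4 genes none was. That count rests on single samples, since without 231K replicate 2 all 4 were lower. In 232P, it was -0.50 ± 0.50 (SE) for PRRX1, -1.02 ± 0.97 for RUNX1, -0.64 ± 0.68 for RUNX2 and -1.08 ± 0.54 for TWIST2, with adjusted p of 0.521, 0.511, 0.540 and 0.466. All 4 were lower in 232P by any amount, as were 91.7% of all genes tested.

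Because nearly all genes were lower in 232P, the members were also read relative to the others. Among genes with a peak in all 6 samples, the median log2 covered length of the samples was shifted by -0.92 in 232P and by -0.05 in 231K against WT. Centred on that shift, the difference of 232P to WT was 0.42 ± 0.25 (SE) for PRRX1, 0.28 ± 0.25 for RUNX2, -0.09 ± 0.25 for RUNX1 and -0.16 ± 0.50 for TWIST2, with adjusted p of 0.766, 0.786, 0.910 and 0.923. Thus PRRX1 and RUNX2 were lower in 232P as measured and higher relative to the median gene, and neither passed the test on either scale. By order alone, both 232P samples were below both WT samples in covered length for 2 of the 4 genes, RUNX1 and TWIST2, against 48.3% of all genes tested, and above for none (0.697%). Both 231K samples were below both WT samples for none (12.5%) and above for none (5.32%).

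**Figure D3:**
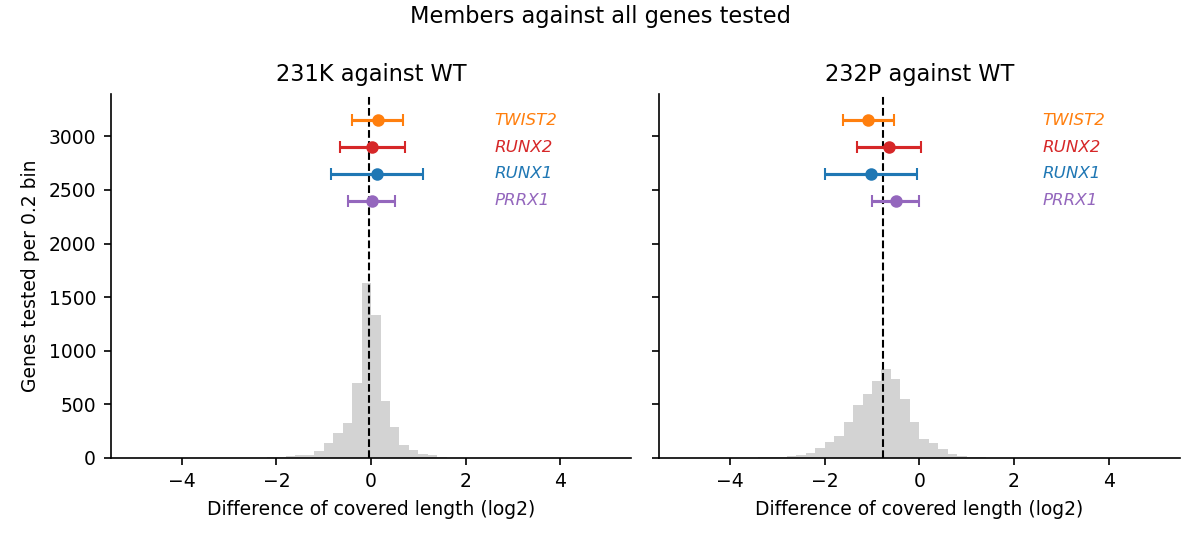
Difference of covered length on the log2 scale (231K against WT on the left, 232P against WT on the right) for PRRX1, RUNX1, RUNX2 and TWIST2 (points with standard error) above the histogram of all 5598 genes tested, whose median is the dashed line. In 232P, the 4 genes lie between -1.08 and -0.50, among the bulk of all genes.

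The strength of the marks moved in the same direction as their length in the ratios of means, with other sizes. The largest fold enrichment in the PRRX1 window, the ratio of the summit to its local background, was 8.99 and 9.54 in WT, 11.1 and 15 in 231K, and 8.56 and 8.57 in 232P. Both 231K samples were above and both 232P samples below the WT samples. For RUNX1 it was 8.73 and 8.41 in WT, 9.43 and 10.0 in 231K, and 9.45 and 7.06 in 232P. For RUNX2 it was 7.74 and 9.67 in WT, 9.84 and 10.8 in 231K, and 6.96 and 8.39 in 232P. In each of these 3 genes both 231K samples exceeded both WT samples, which was the case for 18.4% of the 3939 genes with a peak in all 6 samples, and the reverse held for none (8.68%). Both 232P samples were below both WT samples for PRRX1 alone (35.3%) and above for none (4.7%). The order 231K above WT above 232P, seen in PRRX1, was found in 5.1% of those genes. The ratio of the mean largest fold to WT was 1.41 for PRRX1, 1.13 for RUNX1 and 1.19 for RUNX2 in 231K, with 1.23 and 1.58, 1.08 and 1.19, and 1.27 and 1.12 within replicates 1 and 2. In 232P it was 0.924 for PRRX1, 0.963 for RUNX1 and 0.882 for RUNX2, with 0.952 and 0.898, 1.08 and 0.840, and 0.899 and 0.867 within replicates 1 and 2. With 2 samples against 2, no exact test can go below 0.333, and with the largest fold in place of the covered length limma called no gene in any comparison, with 183, 394 and 176 genes at an unadjusted p under 0.05 in 231K, 232P and both lines.

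**Figure D4:**
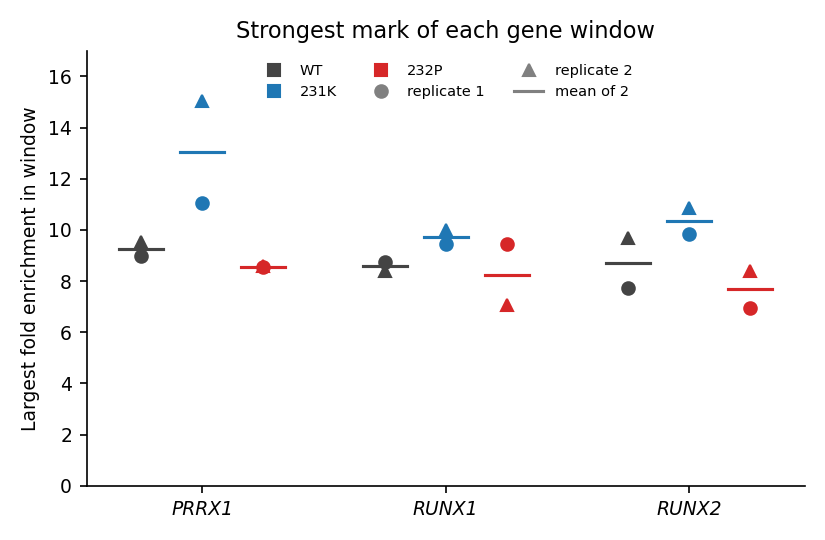
Largest fold enrichment among the peaks of the PRRX1, RUNX1 and RUNX2 windows (linear axis from 0), with 1 point per sample and a line at the mean of 2. In each gene both 231K points lie above both WT points, at 11.1 and 15 against 8.99 and 9.54 for PRRX1.

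The largest -log10 q-value had the same order for PRRX1, at 16.0 and 16.3 in WT, 21.2 and 31.9 in 231K, and 10.7 and 12.4 in 232P. This value rises with depth as well as with enrichment, and the part of depth in this order was not tested. The share of all genes with this order of the -log10 q-value was not computed. The strongest peak of PRRX1 had its summit 0.658 to 3.06 kb before the canonical start in WT replicate 1, both 231K samples and replicate 2 of 232P, and 3.42 and 5.60 kb behind it in the other samples, so the values do not all come from 1 place. The share of peaks whose -log10 q-value reached 5 was the lowest of these 3 genes in RUNX1 in each sample, from 4.51% to 29.3%. In PRRX1 it was 48.8% and 47.8% in WT, 38.3% and 57.1% in 231K, and 13.7% and 47.4% in 232P. In RUNX2 it was 35.5% and 53.8% in WT, 33.8% and 66.7% in 231K, and 4.67% and 46.1% in 232P, so that PRRX1 was the higher of the pair in replicate 1 of each genotype but not in replicate 2 of WT and 231K. Relative to other genes the 3 loci kept a high rank in each sample. PRRX1 was covered more than 96.7% to 98.5% of all genes, RUNX2 more than 94.3% to 95.8% and RUNX1 more than 91.4% to 93.3%. In both WT samples, at least 25% of the window was covered for these 3 of the 10 genes, against 10.6% of all genes.

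The genes around these factors differed by list in how often they were marked. Of 22 other factors of epithelial-mesenchymal transition or the mesenchymal state, 8 had a peak in all 6 samples (36.4%, against 19.7% of all genes) and 7 had none (31.8%, against 68.3%). The median window of these factors was 68.1 kb, against 37.5 kb for all genes, and the part of window length was not tested. The 3 with the highest mean covered share in WT were IFI16, a sensor of foreign DNA, with 66.7% and 82.6%, FOXC2, a forkhead factor of mesenchyme, with 77.5% and 71.0%, and MEOX2, a homeobox factor of the somites, with 41.6% and 80.6%. AEBP1, MEOX1 and PRRX2, the paralogue of PRRX1, were among those with no peak. Of the 12 with a peak in both WT samples, SOX9 had none in 231K (8.33%, against 1.57% of all such genes), and GSC and NOTCH2 had none in 232P (16.7%, against 4.47%). Their windows were little covered in WT, at 2.39% and 6.10% for SOX9, 3.04% and 3.73% for GSC, and 0.244% and 0.312% for NOTCH2. Limma called none of the 13 tested in either line, and 11 were lower in 231K (56.7% of all genes tested) and 12 in 232P (91.7%) by any amount.

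Of 18 partners of the 10 factors, 4 had a peak in all 6 samples and 13 had none, shares of 22.2% and 72.2% that are near those of all genes. The marked partners were LATS2, YAP1 and TEAD2 of the Hippo pathway that controls TAZ, and BATF3 of AP-1. LATS2, a kinase that inactivates YAP and TAZ, was covered by 57.5% and 65.8% in WT, 46.2% and 66.9% in 231K, and 25.5% and 36.8% in 232P. YAP1, the paralogue of WWTR1, was covered by 24.1% and 51.0% in WT, 22.5% and 61.8% in 231K, and 4.43% and 33.5% in 232P, while WWTR1 itself had no peak. BATF3, a leucine zipper partner of JUN, had 7.67% and 15.6% in WT. CBFB, the partner of RUNX1 and RUNX2, CTBP1, a corepressor of SNAI1, and FOS had no peak in any sample. None of the 4 partners tested was called by limma in either line, and all 4 were lower in 232P by any amount, as were 91.7% of all genes tested.

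Of 25 effector genes of the mesenchymal state, 3 had a peak in all 6 samples (12%, against 19.7% of all genes) and 17 had none (68%, against 68.3%). CCN2, a secreted target of YAP and TAZ, was covered by 61.2% and 73.1% in WT, and POSTN, the matrix protein periostin, by 27% and 54.6%. TGFB1, a ligand that induces the transition, came next with 0.935% and 0.930%. ACTA2, CCN1 and CD44 were among the genes with no peak. Of the markers of the mesenchymal type, PRRX1 was marked in all 6 samples, VIM, SNAI2 and CD44 in none, and FN1 in 2. Of the markers of the adrenergic type, PHOX2A, HAND2, GATA3, TH and DBH had no peak in any sample.

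Among 16 adrenergic core factors, 1 had a peak in all 6 samples (6.25%, against 19.7% of all genes) and 13 had none (81.2%, against 68.3%), compared with 3 and 5 of the 10 mesenchymal-state factors. INSM1, a zinc finger factor of neuroendocrine cells, was covered by 45.1% and 55.0% in WT, 48.1% and 54.1% in 231K, and 30.5% and 42.3% in 232P. EYA1, GATA2 and GATA3 had none. The median window was 79.6 kb for the mesenchymal-state factors and 19.3 kb for the adrenergic factors, and a longer window is more likely to hold a peak, so the counts are given side by side with no test. Of 10 constitutive genes, 8, among them ACTB, B2M and GAPDH, had no peak in any sample. HPRT1 and PGK1, both on the X chromosome, had peaks in all 6 samples.

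**Figure D5:**
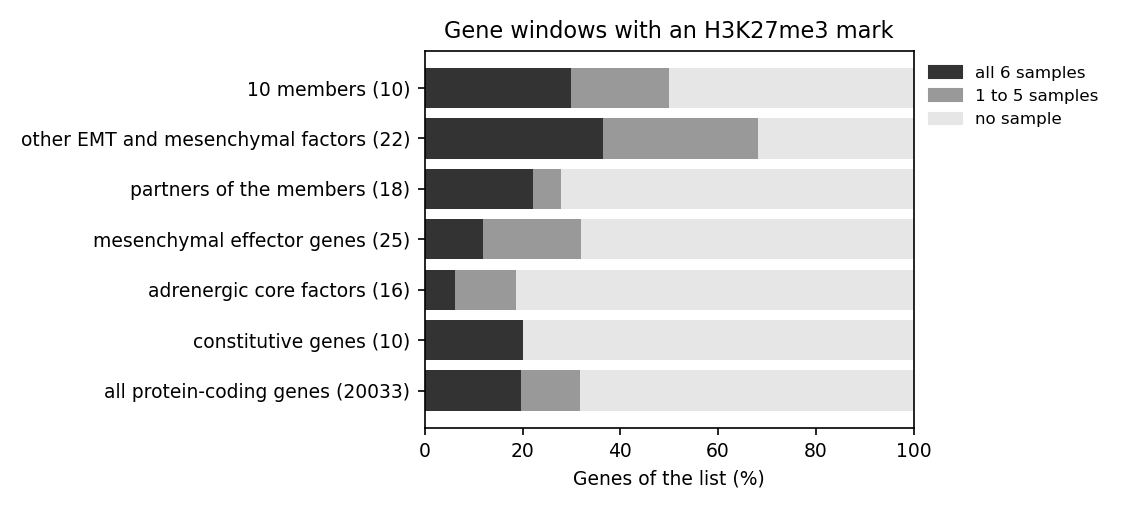
Share of the genes of each list (number of genes in brackets) with an H3K27me3 peak in the gene window in all 6 samples, in 1 to 5 samples, or in none, as stacked bars in percent. Peaks in all 6 samples were found for 3 of the 10 members, 8 of 22 other mesenchymal factors and 1 of 16 adrenergic core factors, against 19.7% of all protein-coding genes. Median window length differs between the lists.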

How the data were processed

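Each of the 6 H3K27me3 ChIP samples had 1 deposited peak list. The study's methods name trimmomatic, BWA with hg38, and MACS (version 2) in broad mode, whereas the deposited lists have the 10 columns of narrow peaks, called per sample. BWA, deepTools and hg38 stand in the submitters' processing notes. Control and thresholds of the peak calls are not given in the sources used here. The deposited fold enrichment is a ratio of summit to local background, and significance was deposited as -log10 p-value and -log10 q-value. No value was normalized between samples, and 0 per-sample columns were left unused. Peak names in the lists labelled 232P start with 231P, the name of another Tau-KO line of the study, and these lists were taken as 232P by their labels.

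The 10 genes, the gene lists and the comparisons were chosen with earlier results of these data known. Gene windows came from GENCODE release 44. The study tested read counts with limma, and since the lists hold no reads, limma 3.58.1 (R 4.3.3; trend, Benjamini-Hochberg over all genes tested) was applied here to log2(covered bp + 500), which understates changes of short covered lengths, for genes with a peak in at least 2 samples. Single genes were compared by an exact permutation test, and the steps were tested on simulated data. From fold enrichment and p-value, the reads at each summit were solved for, and 100% came out whole within 0.001 of the -log10 p-value. This gives relative depth only, so no counting intervals were given. The study calls the duplicates biological, but the labels do not say that they are separate cultures, so p-values measure only the spread between these samples.

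All 10 genes were named in the text. Of each list, the 3 genes with the highest mean covered share in WT were named, with genes called and up to 3 with no peak in alphabetical order. SOX9, GSC, NOTCH2, TEAD2, HPRT1 and PGK1, and the segments of RUNX1, were named after their values were seen. Some genes that this rule picks are not reported here. The settings varied are given with their effect after the results.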

Additional observations from a re-analysis of the deposited data

Results flagged for a closer look

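In the PRRX1 window, both 231K samples were above and both 232P samples below both WT samples in the largest fold enrichment, with means of 13.0 and 8.56 and a ratio of 231K to 232P of 1.52. The largest -log10 q-value had the same order for PRRX1 with a ratio of 2.30, for RUNX1 with 1.54 and for RUNX2 with 1.93. The share of all genes with this order was not computed for the -log10 q-value. For the largest fold enrichment it was 5.1% of the genes with a peak in all 6 samples. The difference between the 2 lines was not tested, and the -log10 q-value also moves with depth. No set of 4 Tau-KO samples among the 14 sets of gene and measure checked had a single sample apart from the others by Dixon's limit.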

How the results depend on the processing

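Of 210 recomputed single-gene differences of covered length for PRRX1, RUNX1, RUNX2 and TWIST2, 0 reached an adjusted p under 0.05. Of these, 19 changed sign, each from a value that had not passed the test, and the cause was not tested. In 231K against WT, the difference was -0.044 for PRRX1 with an equal number of strongest peaks and -0.0073 for RUNX2 with -log10 q-values from 5 up. Single samples set the sign in 231K, since with 1 sample left out it ranged from -0.18 to 0.21 for PRRX1, from -0.26 to 0.54 for TWIST2, from -0.092 to 0.33 for RUNX1 and from -0.12 to 0.18 for RUNX2, and was below 0 for all 4 without 231K replicate 2 and for PRRX1 and RUNX2 without WT replicate 1. In 232P against WT, centring gave 0.42 for PRRX1 and 0.28 for RUNX2. For both Tau-KO lines, centring gave 0.24 for PRRX1, 0.019 for TWIST2, 0.039 for RUNX1 and 0.18 for RUNX2, the largest fold enrichment 0.18 for PRRX1, 0.056 for RUNX1 and 0.038 for RUNX2, and TWIST2 was 0.094 with an equal number of strongest peaks and 0.027 with no flanks. In percentage points, TWIST2 was higher in Tau-KO by 0.528 with -log10 q-values from 5 up, by 0.189 with an equal number of peaks and by 0.214 with no flanks.

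The number of genes called in 232P against WT was 0 under each setting but 1: without 232P replicate 2 it was 2161, where the lone replicate 1 of 232P is assumed to vary like the other groups, so with 1 sample left out it ranged from 0 to 2161. None of the 4 genes was among the 2161. With 1 sample left out, 0 to 1 genes lost a peak in 232P (TWIST2, without 232P replicate 2), and 0 to 1 gained a peak and 0 to 1 a start site mark in 231K (FOSL2, without 231K replicate 1). Start site marks in both samples were found for 1 gene in WT and 1 in 232P with -log10 q-values from 5 up, and for 1 in 231K and 1 in 232P with the first annotated start alone, where 1 was lost in 232P. Without a filter on genes limma could not be fitted, since most genes have 0 covered bases. Depth limits what the absence of a peak means, and the relative depth was lowest in replicate 2 of 232P, at 56.9%. Replicate 1 of 232P had the shortest covered length at a relative depth of 68.1%. Thinning to the lowest relative depth left the counts of genes with a peak in both samples as reported. After thinning, 232P replicate 1 still had 137301 peaks against 187812 to 199096 in the others.

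With the replicate number as a block, limma called 0 genes in each comparison, with 143, 1560 and 503 at an unadjusted p under 0.05 for 231K, 232P and both lines, and TWIST2 was -1.08 in 232P with an adjusted p of 0.177. Deviations from the genotype mean correlated between samples of the same number by 0.297, 0.396 and 0.272 across genes, and the peak widths follow the number. The labels name no shared batch and each genotype has 2 samples, so the other tests did not treat the samples as paired. The spread in the exact permutation tests thus includes the difference between replicate numbers. Within both numbers, PRRX1, RUNX1, RUNX2 and TWIST2 were each covered less in 232P than in WT, as were all gene windows together. The values within each replicate number, added after the peak widths were seen, are given beside the results.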
